A study of Mus musculus with 4 samples.

Results

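Collagen chains are hydroxylated and folded in the endoplasmic reticulum and crosslinked outside the cell, and the 10 genes described here encode enzymes and a chaperone of those steps. They are the prolyl 4-hydroxylase subunits P4ha1 and P4ha3, the chaperone Serpinh1, the lysyl hydroxylases Plod1 and Plod2, and the lysyl oxidases Lox, Loxl1, Loxl2, Loxl3 and Loxl4. The genes were chosen by name, with earlier results of these data known. Of the 10, 9 had a probe set that carries 1 gene symbol, out of 18193 such genes on the array. The probe sets of Loxl2 also carry the symbol of a second gene, Gm21451, so Loxl2 is described apart and enters no count. The tissue was parietal peritoneum, the serosa under the abdominal muscles, from mice on the C57BL/6J background. Wild-type animals and SAP-BNP-Tg animals (Tg below) were used, the latter carrying brain natriuretic peptide (BNP) under the promoter of serum amyloid P, a plasma protein made mainly in the liver. Chlorhexidine gluconate (CG), an antiseptic that irritates the peritoneum, was given into the peritoneal cavity as a 0.1% solution in 15% ethanol and 85% PBS. The dose was 0.01 mL per gram of body weight, 3 times a week for 21 days. Vehicle mice of both genotypes received ethanol in PBS by the same route, for which the labels state no percentage, volume or schedule. Each of the 4 groups was 1 Affymetrix array, so no difference here has a replicate check, and neither the number, sex nor age of the mice behind an array is in the labels.

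Prolyl 4-hydroxylases form the hydroxyproline that keeps the collagen triple helix stable at body temperature, and the alpha subunits encoded by P4ha genes carry the active site. Serpinh1 (HSP47) binds the folded helix and escorts it towards the Golgi. Lysyl hydroxylases modify lysines in helix and telopeptides, and the secreted, copper-dependent lysyl oxidases then turn lysines and hydroxylysines into aldehydes that crosslink collagen and elastin. Tissue scarring is known for raised crosslinking, and P4ha1, Plod2 and Lox are known targets of the hypoxia-inducible factors.

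The arrays called 50.5% to 55.1% of 45037 probe sets Present. The wild-type vehicle array differed from the rest in its controls, with a mean 18S signal of 1052 against 81.5 to 108 on the others and a beta-actin signal 5.81 times as high at the 3-prime end as in the middle, against 2.23 to 2.84 times. Comparisons between the chlorhexidine arrays do not use it. Nppb, which encodes BNP, was Absent on all 4 arrays, so the genotype labels are not checked by it.

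Nearly the whole set had a higher signal on the chlorhexidine arrays. With chlorhexidine, the wild-type array read at least 2-fold higher for 7 of the 9 measured genes and 2-fold lower for 0. Of the 12754 genes Present on at least 1 array, 8.22% were 2-fold higher and 629 were 2-fold lower. In Tg mice 5 of 9 were 2-fold higher, beside 3.81% of all genes, and 0 were lower, beside 178 of the 12754. The 5 genes higher in both genotypes were Lox, Loxl1, Loxl3, Plod2 and Serpinh1, and 3.03% of all genes were higher in both. Plod1 and P4ha3 passed in wild type and not in Tg mice, where their log2 differences were 0.75 and 0.98. Loxl4 and P4ha1 passed in neither genotype. With the deposited scaling the Tg count was 2 of 9 (2.58% of all genes). The median log2 difference over the 9 genes was 1.54 in wild type and 1.10 in Tg mice, and that over all genes was 0.00 in both. Set against the vehicle array of the Tg mice instead, 7 of 9 genes were 2-fold higher on the wild-type chlorhexidine array (7.23% of all genes), and the median was 1.60. In bulk tissue, more cells of a type and more RNA per cell cannot be told apart. The size rule asks for a log2 difference of at least 1, a Present call (the detection call deposited by the authors) on the brighter array, and a signal there at or above the 25th percentile of its Present probe sets. It is no test. All signals are in the arrays' own intensity units after scaling to a common trimmed mean, and a gene takes its brightest probe set. A fold against an array without a Present call is given as a lower bound.

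**Figure D1:**
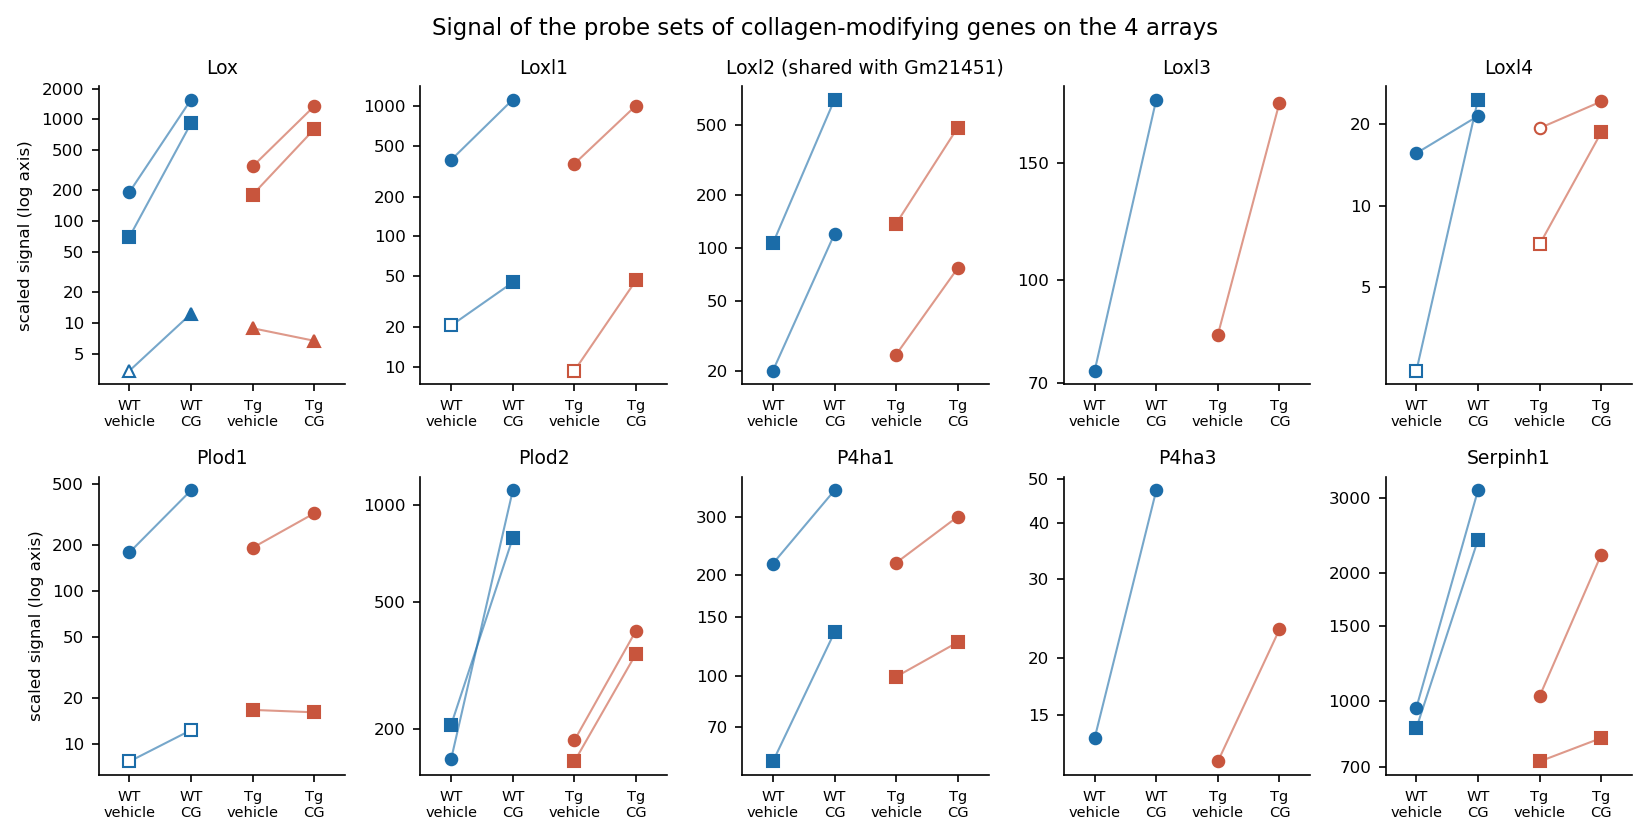
Scaled signal (log axis) of every probe set of the 10 genes on the 4 arrays, blue for wild type (WT) and red for SAP-BNP-Tg (Tg); circles are the probe set taken for the gene, squares and triangles its others, and open symbols were not called Present. Each chlorhexidine (CG) array lies above both vehicle arrays for the probe set taken of all 9 measured genes, and for 14 of their 17 probe sets.

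For all 9 genes the lower of the chlorhexidine arrays was above the higher of the vehicle arrays, a pattern found in 3845 of the 12754 genes, or 30.1%. The wild-type chlorhexidine array was the highest of the 4 for 8 of them, and the transgenic chlorhexidine array for Loxl4. The lowest array was the wild-type vehicle array for 7 genes and the transgenic vehicle array for Loxl1 and P4ha3.

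Among the prolyl hydroxylase subunits, P4ha1, which encodes the widespread alpha subunit (chr10:59323197-59373304 in GRCm38.p6, like the positions after it), had a small difference. Its scaled signal was 217 on the wild-type vehicle array, 359.8 with chlorhexidine, 218 on the transgenic vehicle array and 300.0 with chlorhexidine. The vehicle arrays were close and both chlorhexidine arrays were above them, by 1.66-fold in wild type and 1.37-fold in Tg mice. A second probe set gave 55.3, 135, 99.3 and 126 in the same order, which is 2.43-fold and 1.27-fold higher. P4ha3 (chr7:100285489-100319701), another alpha subunit, was dim, with 13.3 and 47.3 in wild type and 11.8 and 23.2 in Tg mice. The wild-type chlorhexidine array stood above the other 3, and the folds were 3.55 and 1.98.

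Serpinh1 (chr7:99345375-99353239), the collagen chaperone, gave 967 and 3124 in wild type (vehicle, then chlorhexidine) and 1028 and 2208 in Tg mice. The vehicle arrays were close to each other, and the folds were 3.23 and 2.15. Its other probe set, of a class (_x_at) that can match related sequences, gave 866 and 2392 in wild type but 723 and 820.4 in Tg mice. By that probe set the chlorhexidine difference was 2.76-fold in wild type and 1.14-fold in Tg mice. Both probe sets agreed in direction and in the order of the genotypes, and differed in how far the transgenic chlorhexidine array stood above its vehicle array.

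Upstream sequence of these genes is shown because the set includes known hypoxia targets. Whether hypoxia had a part in the differences was not tested. In the RefSeq promoter table for GRCm38.p6, 5 of the 10 genes had an entry, and the 250 bases before the table's start were searched on both strands for ACGTG and GCGTG, the usual cores of the hypoxia response element. Of 32851 promoter windows of that length, 16.6% held ACGTG, 28.2% held GCGTG and 38.6% held either. Among the 5, P4ha1, Serpinh1, Plod1 and Loxl4 held at least 1 match and P4ha3 held 0. Of the hypoxia targets named above, Plod2 and Lox had no entry, and P4ha1 passed the size rule in neither genotype. P4ha1 held GCGTG 163 to 159 and 126 to 122 bases before the start, and ACGTG on the reverse strand at 16 to 12, past the stretch printed. Serpinh1 held ACGTG on the reverse strand at 171 to 167, Plod1 held GCGTG at 20 to 16, and Loxl4 held GCGTG on the reverse strand at 162 to 158. The sequences printed are chr10:59323046-59323196 on the plus strand for P4ha1, chr7:99353240-99353489 on the minus strand for Serpinh1 and chr4:147936777-147937026 on the minus strand for Plod1, each ending just before the annotated gene. They read 5′ to 3′ along the gene, with matches in capitals (a reverse-strand match reads CACGT). A match is a description of the letters and not a measured binding site.
P4ha1: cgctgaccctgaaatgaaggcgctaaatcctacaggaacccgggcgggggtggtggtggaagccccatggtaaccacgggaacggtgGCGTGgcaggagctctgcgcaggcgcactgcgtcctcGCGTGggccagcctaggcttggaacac
Serpinh1: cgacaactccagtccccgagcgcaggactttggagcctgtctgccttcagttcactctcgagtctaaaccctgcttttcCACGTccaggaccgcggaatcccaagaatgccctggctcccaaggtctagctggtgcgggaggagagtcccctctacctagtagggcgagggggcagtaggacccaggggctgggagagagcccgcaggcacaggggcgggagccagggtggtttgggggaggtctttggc
Plod1: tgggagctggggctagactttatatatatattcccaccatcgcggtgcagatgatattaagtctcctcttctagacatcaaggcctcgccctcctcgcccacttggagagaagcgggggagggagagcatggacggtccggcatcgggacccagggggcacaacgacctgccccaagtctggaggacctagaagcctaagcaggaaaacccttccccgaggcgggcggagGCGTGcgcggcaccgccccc

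Of the lysyl hydroxylases, Plod1 (chr4:147909753-147936776), which mainly modifies lysines of the helix, gave 179.9 and 458 in wild type and 193 and 324 in Tg mice. The vehicle arrays were close, and chlorhexidine went with 2.55-fold and 1.68-fold higher signal. A dim second probe set gave 7.73 (Absent), 12.4 (Marginal), 16.8 and 16.2 in the same order of arrays, and did not separate the chlorhexidine arrays from the vehicle arrays. Plod2 (chr9:92539636-92608428), the telopeptide lysyl hydroxylase, had the widest genotype gap on the chlorhexidine arrays among the probe sets taken for the 9 genes. It gave 162 and 1110.2 in wild type, against 185 and 406 in Tg mice. The wild-type chlorhexidine array was far above the other 3, and the folds were 6.85 and 2.2. The second Plod2 probe set gave 207 and 789 in wild type and 159 and 344 in Tg mice, or 3.81-fold and 2.16-fold, with the same order of the chlorhexidine arrays.

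Lox (chr18:52516060-52529867), the founding lysyl oxidase, had the largest chlorhexidine difference in both genotypes among the probe sets taken for the 9 genes. Its scaled signal was 193 and 1564 in wild type and 345 and 1348 in Tg mice, which is 8.12-fold and 3.9-fold higher. Both chlorhexidine arrays were high and close to each other, while the transgenic vehicle array lay 1.79-fold above the wild-type one. A second Lox probe set gave 70.1, 917, 182 and 801, with folds of 13.1 and 4.4 and a 2.59-fold higher transgenic vehicle array. The Lox difference in Tg minus that in wild type was -1.06 on the log2 scale. Tg minus wild type was 0.84 on the vehicle arrays and -0.21 on the chlorhexidine arrays, so the larger share lay between the vehicle arrays. Set against the transgenic vehicle array, the log2 difference of the wild-type chlorhexidine array was 2.18 in place of 3.02, and set against the wild-type vehicle array that of the transgenic chlorhexidine array was 2.81 in place of 1.97. A dim further probe set of Lox gave 3.39 (Absent) and 12.3 in wild type and 8.86 and 6.67 in Tg mice. With chlorhexidine it read at least 3.62-fold higher in wild type but was lower, by 1.33-fold, in Tg mice.

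Loxl1 (chr9:58287723-58313212), the lysyl oxidase tied to elastic fibre upkeep, gave 388 and 1128 in wild type and 362 and 1014 in Tg mice. The genotypes lay close under each treatment, with folds of 2.91 and 2.8. Its dimmer probe set was Absent on both vehicle arrays (20.7 and 9.3) and read 44.4 and 46 with chlorhexidine, higher by at least 2.14-fold and at least 4.94-fold. Loxl3 (chr6:83034205-83052566) gave 73 and 187 in wild type and 82.7 and 185 in Tg mice, and the folds were 2.57 and 2.23. The chlorhexidine arrays of Loxl3 were nearly equal. Loxl4 (chr19:42592279-42612806) was dim, with 15.6 and 21.4 in wild type and 19.3 (Absent) and 24.2 in Tg mice, that is 1.37-fold and at least 1.26-fold higher. A second Loxl4 probe set read 24.6 and 18.6 with chlorhexidine and was Absent on both vehicle arrays (2.46 and 7.19). By it the difference was at least 8.41-fold in wild type and at least 2.58-fold in Tg mice, so the size of the Loxl4 difference depended on the probe set.

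Loxl2, a lysyl oxidase known to crosslink basement membrane collagen, shares both of its probe sets with Gm21451, and the genes lie at chr14:69608692-69695834 and chr14:69390417-69477453; the signals of the genes cannot be told apart. One probe set gave 20 and 119.9 in wild type and 24.7 and 76.5 in Tg mice, or 5.99-fold and 3.1-fold higher. The other gave 106 and 695, then 137 and 482, or 6.53-fold and 3.51-fold. Both read lower on the transgenic than on the wild-type chlorhexidine array, by log2 differences of -0.65 and -0.53.

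Compared between the genotypes on the chlorhexidine arrays, 2 of 9 genes were at least 2-fold lower in Tg mice, Plod2 at 2.73-fold and P4ha3 at 2.04-fold, where 0.964% of all genes were. The second Plod2 probe set was 2.29-fold lower, and P4ha3 had only 1 probe set, whose log2 difference was -0.52 in place of -1.03 with a pseudocount of 32. Serpinh1 was 1.41-fold lower by the probe set taken and 2.92-fold lower by its other one. On the vehicle arrays 0 of 9 were 2-fold higher in Tg mice, where 0.957% of all genes were. There 0 of 9 were 2-fold lower, beside 64 of the 12754 genes. The median log2 difference, transgenic minus wild type, was -0.26 on the chlorhexidine arrays (-0.03 over all genes) and 0.10 on the vehicle arrays (-0.04 over all genes).

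The spread between probe sets of the same gene, over all genes with several, gives a technical scale for these differences. It holds no variation between mice or between arrays of a group, so a difference beyond it is not shown to exceed that variation. Its pooled SD on the log2 scale was 0.281 for the chlorhexidine arrays and 0.404 for the vehicle arrays. On the chlorhexidine arrays, 4 of 9 genes differed by more than it, near the 43.1% of all genes that did in either direction. They were Plod2 (-1.45), P4ha3 (-1.03), Plod1 (-0.50) and Serpinh1 (-0.50), each lower in Tg mice by the probe set taken. For Plod1 this rested on that probe set: the dim one read 0.38, and their mean was -0.06. The other Serpinh1 probe set read -1.54, with a mean of -1.02. By the probe set taken, the 4 measured lysyl oxidases lay within the SD, with Lox at -0.21, Loxl1 at -0.15, Loxl3 at -0.02 and Loxl4 at 0.18. P4ha1 did so too, at -0.26. Other probe sets of Lox and Loxl4 did not all do so. The second Lox probe set read -0.20, but the dim one read -0.88 and the mean over Lox probe sets was -0.43. The second Loxl4 probe set read -0.40, with a mean of -0.11. The probe sets shared by Loxl2 and Gm21451 lay beyond the SD, at -0.65 and -0.53. Between the vehicle arrays, by the probe set taken, only Lox of the 9 lay beyond its SD, at 0.84, where 27.6% of all genes did. The second P4ha1 probe set, Present on all 4 arrays, lay beyond it too, at 0.85. So did the dim probe set of Plod1 (1.12), the second of Loxl4 (1.55) and the dimmer of Loxl1 (-1.16). The other probe sets of Plod2 and Serpinh1 lay within it, at -0.38 and -0.26. Whether the enzyme classes differ from each other was not tested.

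**Figure D2:**
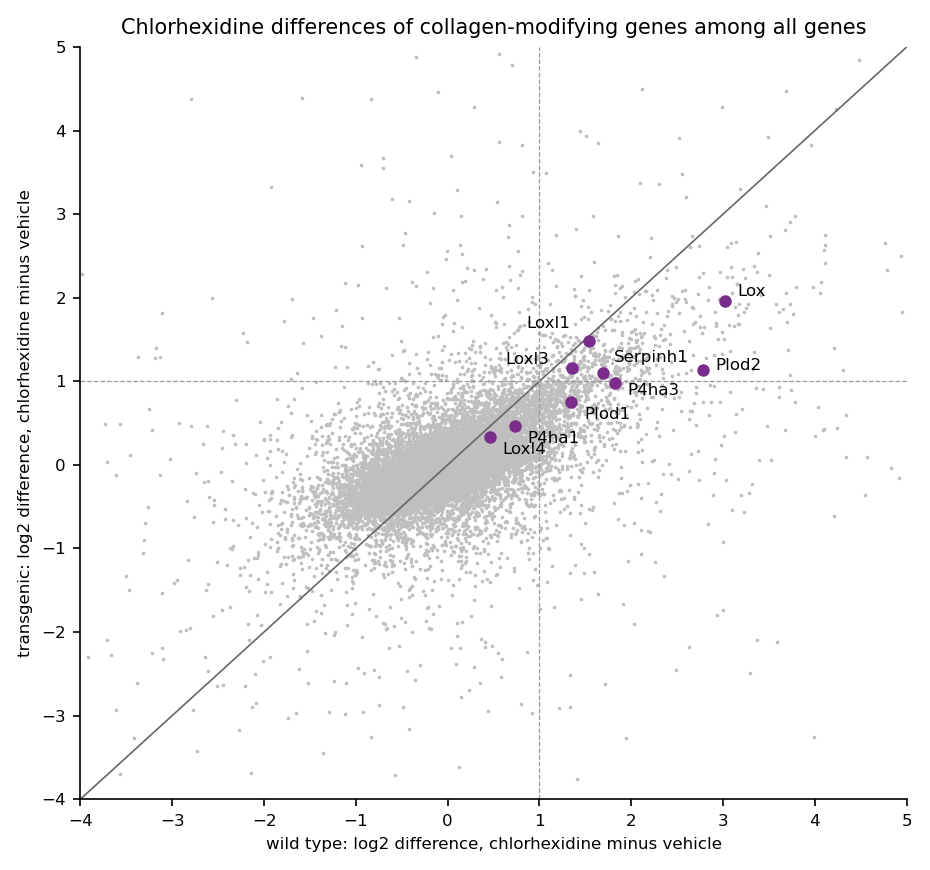
Log2 chlorhexidine difference in wild type (x axis) against that in SAP-BNP-Tg mice (y axis) for each measured gene, over 12692 of the 12754 genes (grey), with 62 outside the axes from -4 to 5. All 9 genes lie above 0 on both axes and below the line of equal difference, with Loxl1 (1.54 and 1.49) nearest to it and Plod2 (2.78 and 1.14) farthest.

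The chlorhexidine difference was smaller in transgenic than in wild-type mice for 9 of 9 genes, with a median difference of differences of -0.59 on the log2 scale. Over all genes the median was 0.02 and 48.8% were below 0. Each difference holds its own vehicle array, so the gap uses the wild-type vehicle array, whose controls differed from the rest. The part of that array in the gap was not tested. Between the chlorhexidine arrays, which do not use it, 8 of 9 genes were lower in Tg mice, as were 53.2% of all genes. There Loxl3 was at -0.02, and Loxl4 was higher, at 0.18. With 1 array per group there is no test of this gap in chlorhexidine differences. Its size was beyond the SD between probe sets (0.48) for 5 of 9 genes and for 35.9% of all genes. At the level of single probe sets, 16 of 17 had the smaller difference in Tg mice, the other being the dim one of Loxl1. The difference was above 0 for 17 of 17 probe sets in wild type and for 15 of 17 in Tg mice, the exceptions being the dim probe sets of Lox and Plod1.

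**Figure D3:**
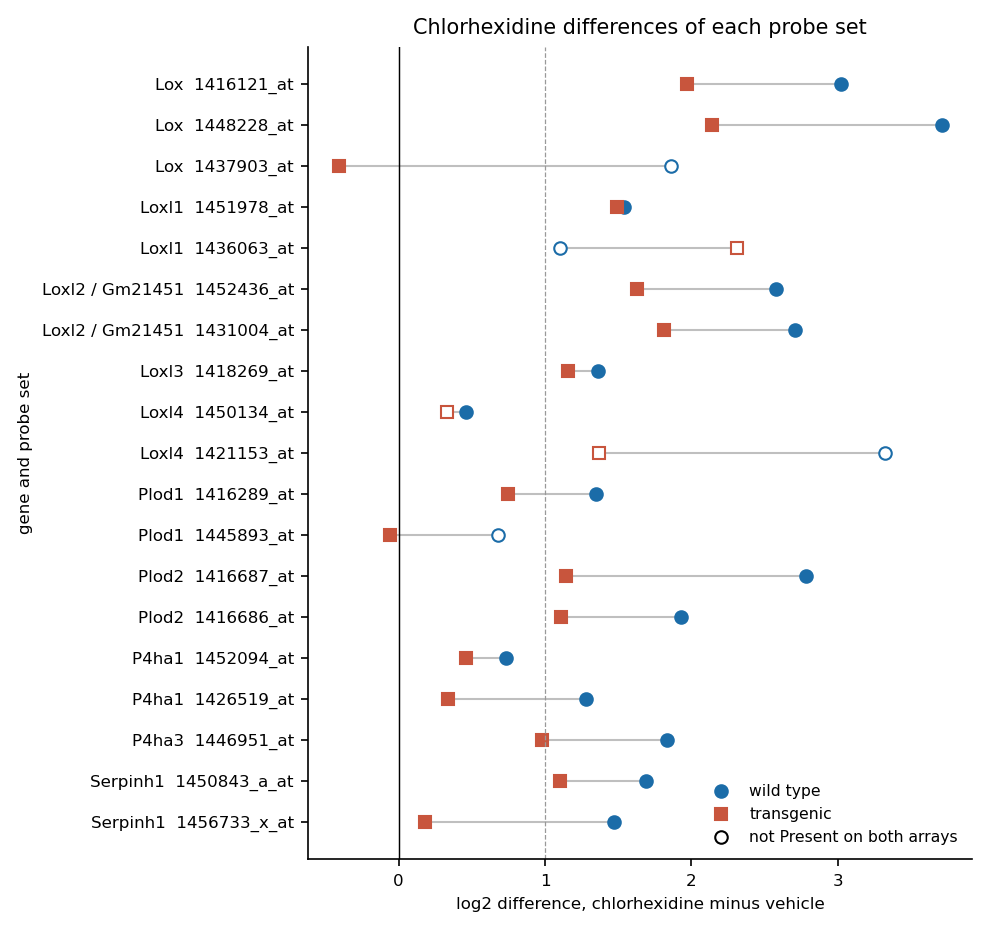
Log2 chlorhexidine difference of every probe set in wild type (blue) and SAP-BNP-Tg mice (red), by gene. Both probe sets of Plod2 lie higher in wild type (2.78 and 1.93) than in Tg mice (1.14 and 1.11), and those of Loxl4 lie far apart in wild type (0.46 and 3.32).

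An additive fit of treatment and genotype over the 4 arrays with limma left 1 residual degree of freedom and called 12 of 12754 genes for chlorhexidine (0.0941%), of which 0 were among these 9. At an unadjusted p under 0.05 it held 8 of 9, where 2939 of all genes (23%) passed. The lowest adjusted p in the set from limma was 0.0584 for Lox, with a mean log2 difference of 2.49 (SE 0.32). Loxl1 followed at 1.51 (SE 0.21), limma adjusted p 0.0638, then Loxl3 at 1.26 (SE 0.22), limma adjusted p 0.0742. Serpinh1 had 1.40 (SE 0.25), P4ha3 1.40 (SE 0.29) and Plod2 1.96 (SE 0.43), with limma adjusted p of 0.0805, 0.0936 and 0.104. Plod1 (1.05, SE 0.25), P4ha1 (0.59, SE 0.22) and Loxl4 (0.39, SE 0.21) had limma adjusted p of 0.12, 0.209 and 0.331. This fit counts any unequal response of the genotypes as error. With other settings it called between 0 and 8 of these genes. For genotype it called 0 of the 9, each at a limma adjusted p of 0.999, and 0 of all 12754 genes.

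Other hydroxylation and folding genes had smaller median differences. Both lists were drawn with earlier results of these data known, and P4ha2, P4hb and Plod3 were placed in this one. The gap between the medians is therefore no result about the described set. Of 18 such hydroxylation and folding genes, 17 were measured, and 7 were 2-fold higher with chlorhexidine in wild type, 2 in Tg mice and 0 lower in either, with median log2 differences of 0.75 and 0.67. Pdia3, an endoplasmic reticulum disulfide isomerase, gave 591 and 1704 in wild type and 773 and 1459 in Tg mice. Fkbp7, a prolyl isomerase of the same compartment, gave 206 and 586, then 221 and 451. The prolyl 3-hydroxylase family gene P3h3 gave 49.6 and 143, then 59.9 and 109. Crtap, a subunit of the prolyl 3-hydroxylation complex, gave 278 and 659, then 252 and 529. In these 4 genes both chlorhexidine arrays were above both vehicle arrays. The closest relatives of the described enzymes passed the size rule in neither genotype, a choice of names made after their values were seen: P4ha2 had log2 differences of 0.96 and 0.26, the shared beta subunit P4hb 0.58 and 0.38, and Plod3 0.30 and 0.07.

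Of 11 genes of procollagen export and processing, 9 were measured, with 3 higher in wild type, 2 higher in Tg mice and 1 lower, in wild type. Bmp1, the C-propeptidase that also activates Lox, gave 103 and 269 in wild type and 108 and 246 in Tg mice. Adamts3, an N-propeptidase, gave 31.5 and 90.4, then 31.9 and 62. Pcolce, an enhancer of Bmp1, gave 1629 and 3097, then 1381 and 2886. Pcolce2, its relative, went the other way, from 286 to 99.9 in wild type (2.86-fold lower) and from 342 to 241 in Tg mice (1.42-fold lower). Creb3l1, a transcription factor of collagen secretion, was the other gene higher in wild type, at 36.2 and 78.6, and was named after its value was seen.

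Part of the fibrillar collagen genes, whose products the enzymes act on, were higher too. Of 9, 6 passed the size rule in wild type and 4 in Tg mice, with 0 lower by it, with medians of 1.72 and 1.09 (1.42 and 1.02 without Col2a1, which was Present on no array) and a median genotype difference of -0.37 on the chlorhexidine arrays. Col5a2 was 6.02-fold and 3.97-fold higher, Col5a1 5.95-fold and 3.03-fold, and Col5a3 3.3-fold and 2.13-fold, all chains of collagen V, a regulator of fibril diameter. Col1a1 had log2 differences of 2.44 and 2.02. Col11a2, a chain of collagen XI named after its values were seen, was Present only on the wild-type vehicle array, at 33 against 19.1 with chlorhexidine (at least 1.73-fold lower). Of 9 crosslinking partners, 8 were measured and 3 were 2-fold higher in both genotypes. These were elastin (Eln), at 156 and 540.2 in wild type and 119.7 and 367 in Tg mice, periostin (Postn), with log2 differences of 2.78 and 2.30, and fibronectin (Fn1), at 957 and 4003, then 1139 and 3215. The limma fit called 0 genes in each of these 4 lists, and its lowest adjusted p there was 0.0506.

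**Figure D4:**
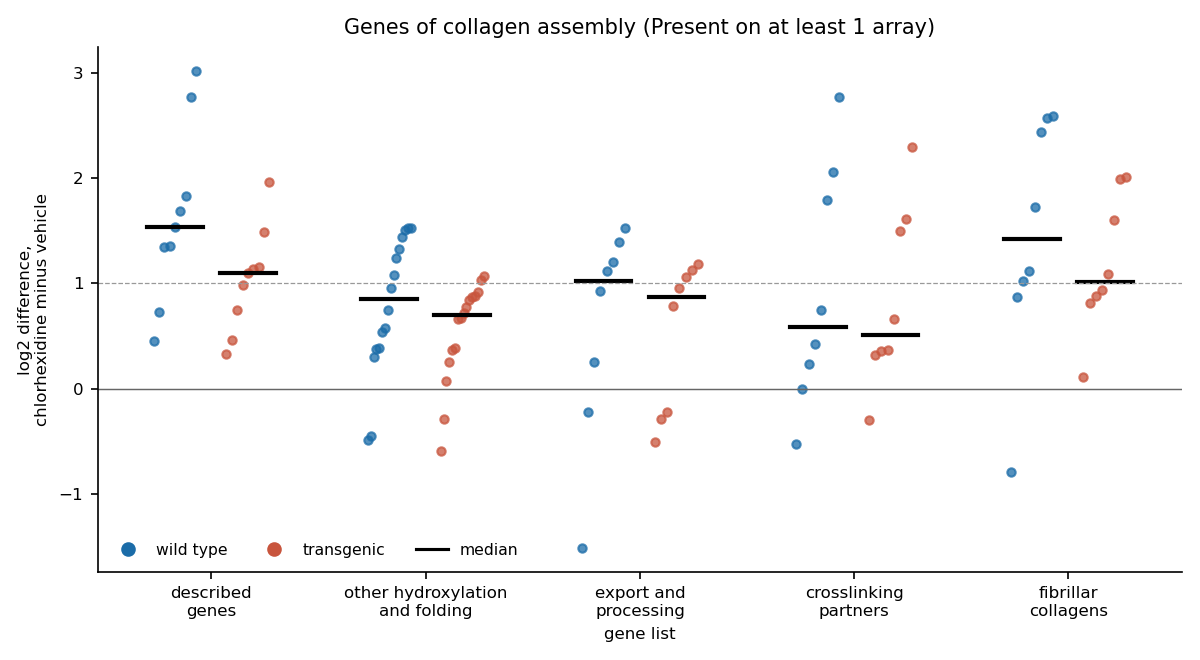
Log2 chlorhexidine differences of single genes in wild type (blue) and SAP-BNP-Tg mice (red) for the measured genes described and 4 further lists of collagen assembly, over genes Present on at least 1 array, with the median as a bar and the 2-fold threshold as a dashed line. The described genes (medians 1.54 and 1.10) lie above the other hydroxylation and folding genes (0.85 and 0.70 over the 16 Present). The lists were drawn with earlier results of these data known.

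The 5 genes whose pattern over the 4 arrays was nearest to the mean of the set, of 10398 genes Present on all 4, were Ly86, Mpeg1, Dpysl3, Fkbp7 and Ifi47. Their Euclidean distances on centred log2 signal were 0.0246, 0.0342, 0.0818, 0.0944 and 0.104. The mean pattern ran at -0.75 on the wild-type vehicle array, 0.89 on its chlorhexidine array, -0.59 on the transgenic vehicle array and 0.45 on its chlorhexidine array.

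Markers of several cell types moved with the same arrays, and their part in the results was not tested. The summed signal of 8 fibroblast markers, all Present throughout, was 11185 and 16725 in wild type (vehicle, then chlorhexidine) and 11893 and 14871 in Tg mice, with 2 and 1 of 8 at least 2-fold higher. That of 8 macrophage markers was 6456 and 11533, then 7381 and 11017, with 5 and 2 of 8 higher. The 9 mesothelial markers summed to 866 and 463, then 660.1 and 679, with 3 lower in wild type and 0 in Tg mice. Of these 9, 0 were higher in wild type and 1 in Tg mice, Wt1, at 31.5 and 60.7, then 21.8 and 52.3. Of the 6 myofibroblast and smooth muscle markers (sums 6649.8 and 6432, then 5798 and 6022), 3 were higher in wild type and 0 in Tg mice. Des was the brightest in these sums, at 4538 and 3287, then 3784 and 3889. In wild type 5 of the 6 had a log2 difference above 0 with chlorhexidine, and only Des was below 0. Cnn1 was Present only on the wild-type chlorhexidine array. The 6 endothelial markers summed to 755 and 1064, then 839 and 878, with 2 higher in wild type and 0 in Tg mice. The 5 adipocyte markers measured summed to 10938 and 6141, then 11404 and 8277, with 3 lower in wild type and 2 in Tg mice. The 8 skeletal muscle markers summed to 77796 and 64679, then 63577 and 66141, with 0 passing the size rule. The 4 B and plasma cell markers were 4 of 4 lower with chlorhexidine in both genotypes, with sums of 3484 and 99, then 1555 and 177, and Cd79a and Ms4a1 were Absent on both chlorhexidine arrays.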

How the data were processed

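RNA of parietal peritoneum was taken up with RNeasy Mini columns, and biotin-labelled cRNA was hybridised to 4 Affymetrix arrays, per the labels' protocols. The authors deposited a signal, an intensity on a linear scale, for each probe set, per the file headers. Each deposited signal has a detection p-value and a call (Present, Marginal or Absent), per the file headers. Which algorithm and target scaled them is not stated in those sources, and raw scanner files were not used here. The number of arrays limits the precision.

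The arrays hold 45101 probe sets, 64 of them controls that were dropped. Among the remaining 45037, 34945 had 1 symbol, 932 several and 9160 none in the platform table used here, and 34741 symbols were updated through Entrez identifiers to RefSeq (GRCm38.p6). Arrays were multiplied to a common 2% trimmed mean (factors 0.877 to 1.17), raised to a floor of 0.1 and put on the log2 scale. A gene took its probe set of highest mean log2 signal. Lower bounds of folds were set against the dimmer array's lowest Present signal, or the probe set's own signal there if higher. The additive model used limma 3.58.1 in R 4.3.3 (lmFit, eBayes) with Benjamini-Hochberg adjustment at 0.05 over 12754 genes. Its code was also run on simulated data with known effects, equal noise for all genes and the same response in both genotypes. That run checks the code and does not bear on the calls in these data.

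The members and gene lists were chosen with earlier results of these data known. All 10 members were named with every probe set. Each of the 4 pathway lists gave up to 4 genes of largest mean difference among those past the size rule, and any past it in the opposite direction. The 5 nearest patterns were named too. Alternatives covered the scaling, pseudocount, filters, probe set choice, vehicle array, size threshold and variance prior.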

Additional observations from a re-analysis of the deposited data

Results flagged for a closer look

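A dim Lox probe set had a log2 chlorhexidine difference of 1.86 in wild type and -0.41 in Tg mice, so the genotypes went opposite ways. The difference between them was not tested, and the brighter Lox probe sets were higher in both genotypes. A dim Plod1 probe set likewise had 0.68 in wild type, where it was not called Present on either array, and -0.06 in Tg mice, and this difference was not tested.

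The probe sets shared by Loxl2 and Gm21451 stand outside the counts of the report. On the log2 scale 1 of them was higher with chlorhexidine by 2.58 in wild type and 1.63 in Tg mice, and the other by 2.71 and 1.81.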

How the results depend on the processing

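The chlorhexidine difference of single genes was above 0 in 88 of 88 values in each genotype, over the alternatives tallied by gene. The alternative with the second probe set of each gene is not in that tally, and in it Plod1 was at -0.06 in Tg mice. Transgenic minus wild type on the chlorhexidine arrays was above 0 in 11 of 79. The median ranged from 1.21 to 1.79 in wild type, 0.90 to 1.19 in Tg mice and -0.38 to -0.18 between the chlorhexidine arrays. For the difference of differences it ranged from -1.04 to -0.44. The value of -1.04 came with the deposited scaling, where the median over all genes was -0.44. Of 334 single-gene values, 27 moved by more than the SD between probe sets and 0 reversed a called value.

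With the deposited scaling 2 genes, not 5, were 2-fold higher in Tg mice, and the median between the vehicle arrays was 0.52, not 0.10, where that of all genes was 0.37. Over all genes, the median wild-type difference with chlorhexidine was 0.25 with that scaling, -0.11 after quantile normalization and -0.12 after median centring. At a 3-fold threshold 4 genes were higher in wild type (3.32% of all genes) and 1 in Tg mice (1.16%). Averaged over its probe sets, Plod1 in Tg minus wild type on the chlorhexidine arrays was -0.06 in place of -0.50. With the second probe set of each gene, an alternative chosen after seeing the data, 5 of 7 were higher in wild type and 3 of 7 in Tg mice. Loxl3 and P4ha3 have 1 probe set each and are not in that count, and no share of all genes was computed for it. P4ha3, a dim gene, was lower in Tg mice on the chlorhexidine arrays by a log2 difference of -0.52 with a pseudocount of 32, in place of -1.03.

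The limma fit called 0 of these genes, but 5 with the deposited scaling (722 of all genes), 8 with the pseudocount of 32 (2358), 7 over genes Present on all 4 arrays (2228) and 8 with an intensity trend in the variance prior (2483); the cause was not tested. Dim probe sets limit Loxl4 and P4ha3. Without the probe set classes that match several transcripts (_s_at, _x_at, _a_at), Serpinh1 gave no value.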

Other observations

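Of the 8 crosslinking partners measured, 5 passed the 2-fold size rule in neither genotype, and they were named after their values were seen. Tgm2, a transglutaminase that crosslinks proteins by another chemistry, gave scaled signals of 1267 and 1266 in wild type (vehicle, then chlorhexidine) and 1165 and 1455 in Tg mice. Fmod, a collagen-binding proteoglycan that guides lysyl oxidase to its sites, gave 1988 and 1377, then 2090.5 and 1699, lower with chlorhexidine by 1.44-fold and 1.23-fold. The copper supply of the lysyl oxidases showed small differences too. Atp7a, the copper pump of the secretory pathway, gave 169 and 282, then 185 and 237, and the copper chaperone Atox1 gave 552 and 649.6, then 490 and 631. Fbln5, an elastic fibre protein that binds Loxl1, gave 182 and 244, then 191 and 303.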
